A study of Rattus norvegicus with 26 samples.

Results

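The dentate gyrus (DG) of rats given doxorubicin together with ABT-263 was compared with that of vehicle-treated rats, using 18 of the 26 rats of the series: 8 in the Dox + ABT group and 10 in the Veh group. The rats were chosen by their labelled treatment alone. All were male F344 (Fischer 344) rats aged 6 months, and none carried a transgene. The Dox + ABT rats received weekly doses of 2 mg/kg doxorubicin over 4 weeks and ABT-263 at 12 mg/kg by gavage on 5 days in a row in alternate weeks, and the Veh rats received the gavage vehicle on the same schedule and came from a parallel study of brain aging. A further 8 rats given doxorubicin alone (Dox group) entered the model for the estimate of the spread. Tissue came from 1 hemisphere of each rat, after behavioural testing, with 1 poly(A) RNA library per rat.

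Doxorubicin (Dox) is an anthracycline chemotherapy drug that poisons DNA topoisomerase II and gives rise to DNA damage and to cellular senescence, a lasting arrest of the cell cycle with secretion of inflammatory factors. ABT-263 (navitoclax) blocks the anti-apoptotic proteins Bcl-2, Bcl-xL and Bcl-w, on which many senescent cells depend, and is used as a senolytic. The DG is the hippocampal subregion built around a dense layer of granule cells, which receive the cortical input to the hippocampus and are added throughout life from local progenitors. In bulk tissue of this kind, fewer cells of a type and less RNA per cell cannot be told apart.

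The granule cell markers Prox1, C1ql2, Dsp and Calb1 were present in every Veh and Dox + ABT library, with means of 2610, 6272, 767 and 958 normalized counts over all rats of the series. The markers of the neighbouring CA fields Fibcd1 and Wfs1 were also present. Over the Veh and Dox + ABT rats they ranged from 513 to 4332 and from 1201 to 13686 normalized counts, so transcripts of CA tissue were not even between these rats. The low values stepped by what 1 read is worth, which gave an estimated 10154546 to 24314135 reads per Veh rat and 12333819 to 20226148 per Dox + ABT rat. Genes for cytosolic ribosomal proteins, the structural proteins of the ribosome, took 0.667% to 2.23% of the normalized counts in the Veh rats (median 1.66%) and 1.01% to 1.38% in the Dox + ABT rats (median 1.09%). All Dox + ABT libraries thus lay inside the range of the Veh libraries, and 2 of the 10 Veh libraries had a share between the lowest and the highest of the Dox + ABT group. The mean log2 share differed by -0.35 (Dox + ABT minus Veh), which did not pass an exact permutation test over all splits of the 18 rats (two-sided p = 0.095). Without Veh rat 11, whose share of 0.667% was the lowest, the difference was -0.47 (exact p = 0.0074), and without Veh rat 10 it was -0.41 (exact p = 0.0495). On the percent scale in place of log2 it was -0.385 (exact p = 0.0443), so the call depended on the scale and on single rats. Along the first principal component of the variation within groups, 16 of the 26 libraries formed a first kind and 10 a second kind, with a share of at most 1.32% in the first and at least 1.38% in the second. Of these, 4 Veh and 7 Dox + ABT libraries were of the first kind, while 6 Veh libraries and that of Dox + ABT rat 4 were of the second. The kinds come from the values and are not a batch that the labels name.

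**Figure D1:**
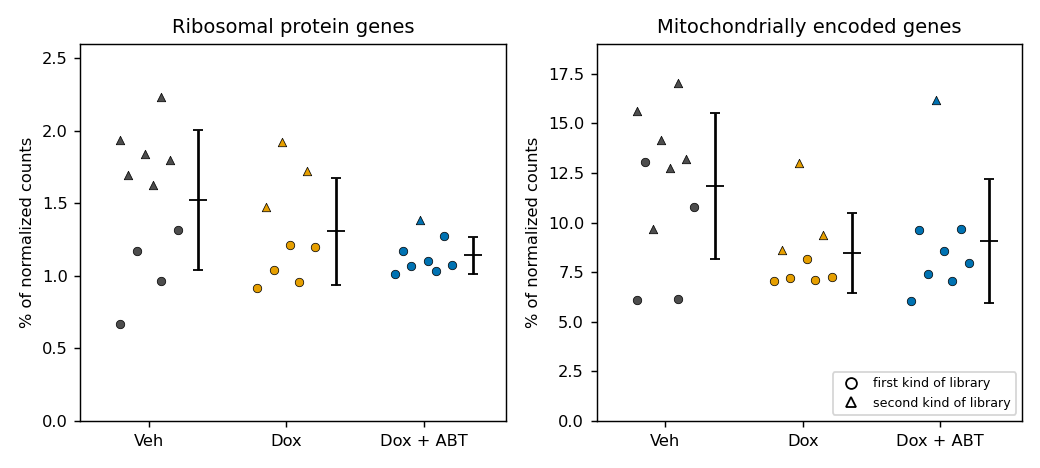
Percent of each library's normalized counts in genes for cytosolic ribosomal proteins (left) and in mitochondrially encoded genes (right), 1 point per rat, with the mean and SD of each group beside the points. Circles are libraries of the first kind and triangles of the second, and the ribosomal share of the 8 Dox + ABT rats lies between 1.01% and 1.38% while that of the 10 Veh rats runs from 0.667% to 2.23%.

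To ask which genes differed between the groups, the 15595 genes whose mean reached 5 normalized counts were all tested with limma on log2(normalized count + 1), a scale that understates the change of low genes. At an unadjusted p under 0.01, 606 genes were higher and 616 lower in Dox + ABT than in Veh, 1222 in all or 7.84% of the genes tested (3.89% higher and 3.95% lower). No gene passed Benjamini-Hochberg adjustment at 0.05 in limma's test, the smallest adjusted p being 0.108, and 3510 genes had an unadjusted p under 0.05. This count of 0 turned on single rats: 1181 genes had an adjusted p under 0.05 without Veh rat 11, 690 without Dox + ABT rat 4, 547 without Veh rat 10, 105 without Veh rat 6 and 5 without Veh rat 5, and none without any other of the 18. It turned on the processing as well, with 6152 such genes under library weights (arrayWeights) and 635 with a replicate block on fewer rats. The changes were small: the median size among the 1222 genes was 0.45 on the log2 scale, and 54 changed by more than 1. Leaving out 1 rat moved the count between 695 (without Dox + ABT rat 5) and 2130 (without Veh rat 11), and 511 of the 1222 genes kept p under 0.01 whichever rat was left out. The counts within gene lists moved too. Of all tested genes 13.7% passed without Veh rat 11 (6.1% higher and 7.56% lower). Without Dox + ABT rat 4 it was 11.7% (6.27% higher and 5.48% lower), and without Veh rats 10 and 11 it was 19.5% (8.96% higher and 10.6% lower). List counts from those fits are to be read against these shares. No gene had values in the Dox + ABT rats that were all above or all below those of the Veh rats.

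The ribosomal share was then added to the model as a covariate, on the log2 scale, with the same slope in every group. With it, 168 genes were higher and 220 lower at p under 0.01, 388 in all or 2.49% of those tested (1.08% higher and 1.41% lower), again with none at an adjusted p under 0.05 (Benjamini-Hochberg, smallest 0.302) and 1636 at an unadjusted p under 0.05. Of the 1222 genes, 310 remained (131 higher and 179 lower, 25.4%), 912 did not, and 78 genes passed only with the covariate. None of the 912 changed sign, and their median change went from 0.43 to 0.26 on the log2 scale, while that of the 310 went from 0.50 to 0.35. The share had a slope with p under 0.01 for 5525 genes, 35.4% of all tested, and for 641 of the 912. The count with the covariate also moved with single rats: 111 genes passed without Veh rat 11, 235 without Dox + ABT rat 5, 237 without Dox + ABT rat 3, 242 without Dox + ABT rat 6 and 614 without Veh rat 6. In the fit without Veh rat 11, 70 of the 310 kept p under 0.01 with the covariate and 239 of the 310 kept p under 0.05. Whichever of the 18 rats was left out, 62 of the 388 kept p under 0.01 with the covariate and 54 of the 310 kept it in both fits, and without Dox + ABT rat 4 the count rose to 702, 4 of the tested genes then having an adjusted p under 0.05. Among libraries of the first kind alone, 4 Veh against 7 Dox + ABT rats, 172 genes passed (1.1% of those tested), 41 of the 310 among them, and 307 of the 310 changed in the same direction.

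**Figure D2:**
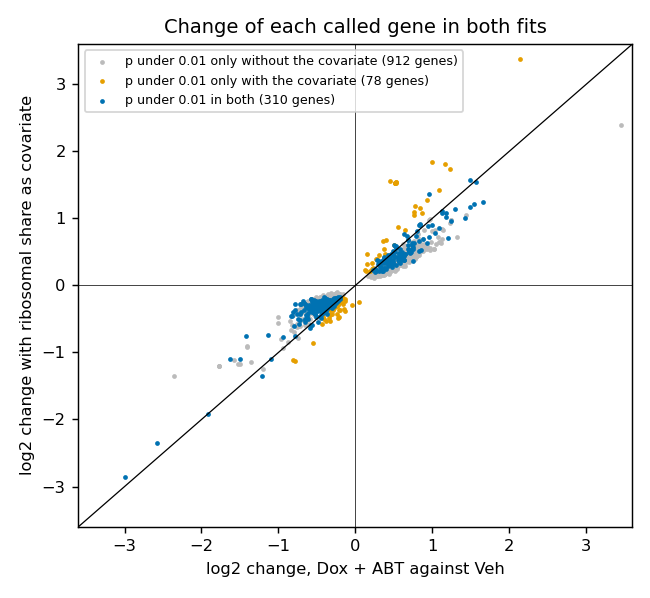
Log2 change between Dox + ABT and Veh without a covariate (x axis) and with the ribosomal share as covariate (y axis) for each gene at p under 0.01 in either fit, with the line of equality. Most of the 912 genes that passed only without the covariate (grey) lie between that line and 0, as do most of the 310 that passed in both (blue), and 78 genes passed only with it (orange).

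Among genes higher in Dox + ABT, Trim39, a tripartite motif E3 ubiquitin ligase, had the smallest p. Its values ran from 192 to 349 normalized counts in the Veh rats (median 265) and from 346 to 482 in the Dox + ABT rats (median 382). Only the lowest Dox + ABT rat lay below the highest Veh rat, and the other 7 were above all Veh rats. The log2 change was 0.60 ± 0.11 (SE, p = 1.01e-05), 0.50 ± 0.11 (p = 5.73e-05) with the covariate and 0.40 (p = 0.000899) among libraries of the first kind alone. Clec2g, a C-type lectin, ran from 18.5 to 73.4 normalized counts in the Veh rats (median 35.8) and from 63.9 to 110.2 in the Dox + ABT rats (median 82.3), a log2 change of 1.03 ± 0.23 (SE, p = 9.43e-05) and, with the covariate, of 0.78 ± 0.20 (p = 0.000622). Its Veh values fell into higher ones from the first kind of library and lower ones from the second. Unc13b, which encodes the vesicle priming protein Munc13-2, ran from 277 to 659 normalized counts in the Veh rats (median 387) and from 437 to 725 in the Dox + ABT rats (median 639). The groups overlapped widely in Unc13b, with 2 of the 8 Dox + ABT rats above every Veh rat, and the log2 change was 0.59 ± 0.14 (SE, p = 0.00029) and 0.40 ± 0.11 (p = 0.00125) with the covariate.

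The other genes with the smallest p in this direction held smaller or similar changes. Ppp4r4, a regulatory subunit of protein phosphatase 4, changed by 0.47 (p = 0.000121) without the covariate and 0.34 (p = 0.000543) with it. Zmym6, a zinc finger protein, changed by 0.62 (p = 0.0002) without the covariate and 0.42 (p = 0.000673) with it. Hltf, a helicase-like protein of the replication stress response, changed by 0.60 (p = 0.000227) without the covariate and 0.45 (p = 0.0015) with it, and its p with the covariate was 0.0126 without Veh rat 11. All 8 Dox + ABT rats lay above the Veh median in each of these genes. Mrm1, a methyltransferase of mitochondrial ribosomal RNA, changed by 0.49 (p = 0.000234) without the covariate and 0.35 (p = 0.00133) with it. Gmeb1, which binds glucocorticoid modulatory elements, changed by 0.45 (p = 0.000253) without the covariate and 0.35 (p = 0.00161) with it. In both, 7 of the 8 Dox + ABT rats were above all Veh rats.

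Among genes lower in Dox + ABT, Rxra, the retinoid X receptor alpha that pairs with many nuclear receptors, had the smallest p. It ran from 296 to 589.9 normalized counts in the Veh rats (median 403) and from 166 to 314 in the Dox + ABT rats (median 279.7). All 8 Dox + ABT rats were below the Veh median and 6 were below every Veh rat, with a log2 change of -0.65 ± 0.13 (SE, p = 2.13e-05) and -0.55 ± 0.12 (p = 0.000137) with the covariate. Dbp, a transcription factor at the output of the circadian clock, ran from 1333 to 2499.6 normalized counts in the Veh rats (median 2048) and from 972 to 1608 in the Dox + ABT rats (median 1098). Its change was -0.63 ± 0.13 (SE, p = 3.45e-05), and -0.44 ± 0.09 (p = 3.22e-05) with the covariate although its level followed the share (slope p = 1.16e-06). The Dox rats, given no ABT-263, ran from 1008 to 1441 for Dbp (median 1202), near the Dox + ABT rats. Within the first kind of library the Dbp change was -0.29 (p = 0.0101). Eif4ebp1, which represses cap-dependent translation until it is phosphorylated by mTORC1, ran from 109 to 187 normalized counts in the Veh rats (median 157) and from 66.1 to 141 in the Dox + ABT rats (median 81.3). The highest Dox + ABT value was that of rat 4, the others were all below every Veh rat, and the change was -0.72 ± 0.15 (SE, p = 5.28e-05) and -0.51 ± 0.12 (p = 0.000155) with the covariate.

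**Figure D3:**
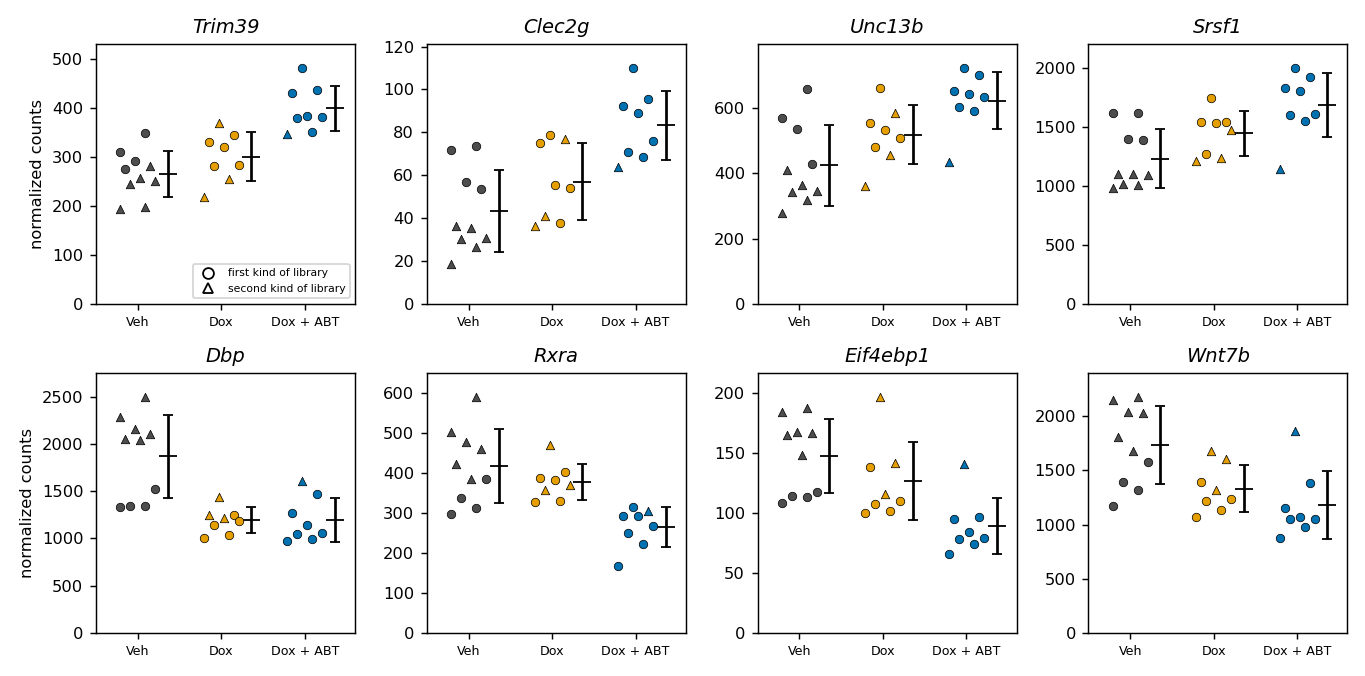
Normalized counts per rat for 8 genes in the Veh, Dox and Dox + ABT groups, with the mean and SD of each group beside the points; circles are libraries of the first kind and triangles of the second. Trim39, Clec2g, Unc13b and Srsf1 were higher and Dbp, Rxra, Eif4ebp1 and Wnt7b lower in Dox + ABT than in Veh, every gene with some overlap between the groups.

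Nr2f6, an orphan nuclear receptor, ran from 528 to 1071 normalized counts in the Veh rats (median 938) and from 342 to 629.6 in the Dox + ABT rats (median 493). Its Veh values also split by kind of library, and the change was -0.74 ± 0.17 (SE, p = 0.000135), -0.50 ± 0.12 (p = 0.000315) with the covariate and -0.30 (p = 0.0579) in the first kind alone. Chst2, a sulfotransferase of carbohydrate chains, changed by -0.44 (p = 0.000136) without the covariate and -0.39 (p = 0.000587) with it, and its slope on the share had p = 0.238. Arhgap22, a GTPase activating protein, changed by -0.53 (p = 0.000125) without the covariate and -0.41 (p = 0.000816) with it. Kcnh3, a voltage-gated potassium channel of the forebrain, changed by -0.36 (p = 0.000176) without the covariate and -0.29 (p = 0.000941) with it. Without Veh rat 11 the p with the covariate was 0.0117 for Arhgap22 and 0.0176 for Kcnh3. Ubald2 changed by -0.49 (p = 0.000186) without the covariate and -0.35 (p = 0.000922) with it.

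The fit with the covariate brought 4 further genes among those with the smallest p. Itgb1bp1, which binds the tail of beta 1 integrin, ran from 139.9 to 263 normalized counts in the Veh rats (median 220.3) and from 227 to 297 in the Dox + ABT rats (median 253). Its change was 0.27 ± 0.10 (SE, p = 0.00792) and 0.38 ± 0.09 (p = 0.000148) with the covariate, and it was 0.46 (p = 0.00161) in the first kind alone. Aifm1, a mitochondrial flavoprotein that supports respiratory chain assembly and takes part in cell death when released, ran from 227 to 304 normalized counts in the Veh rats (median 269) and from 286 to 387 in the Dox + ABT rats (median 337), a change of 0.30 ± 0.08 (SE, p = 0.00152) and 0.32 ± 0.09 (p = 0.00119) with the covariate. It was higher than every Veh rat in 6 of 8 Dox + ABT rats, and its slope on the share had p = 0.51. Egr3, an activity-induced transcription factor, ran from 1275 to 2155 normalized counts in the Veh rats (median 1680.1) and from 1068 to 1656 in the Dox + ABT rats (median 1302). All Dox + ABT rats were below the Veh median for Egr3, and its change was -0.37 ± 0.10 (SE, p = 0.0012) and -0.42 ± 0.10 (p = 0.000318) with the covariate. The Notch receptor gene Notch3, used mainly by mural cells of vessels, ran from 235 to 484 normalized counts in the Veh rats (median 324) and from 175 to 294 in the Dox + ABT rats (median 227) and changed by -0.56 ± 0.14 (SE, p = 0.000383) and -0.59 ± 0.15 (p = 0.000447) with the covariate. Of the genes named here by their p, Trim39, Clec2g, Ppp4r4, Zmym6, Mrm1, Gmeb1, Unc13b, Srsf1 and Aifm1 among the higher and Rxra, Dbp, Eif4ebp1, Nr2f6, Chst2, Ubald2, C1r, Wnt7b, Wnt16, Notch3, Egr3 and Kcnj4 among the lower kept p under 0.01 in both fits whichever of the 18 rats was left out. In the first kind of library alone, only Trim39, Mrm1, Eif4ebp1 and Wnt7b of these had p under 0.01 in limma's test. The highest p there was 0.113 (Kcnj4). With Veh rat 11 left out, p with the covariate was between 0.0117 (Arhgap22) and 0.0961 (Dlgap3) for those 2 and for Hltf, Srsf6, Col20a1, Col5a3, Tp53bp1 and Lmnb1 among the higher and Kcnh3, Mcm6, Mcm7, Nrxn2, C1ql2, Pdk1, Por, Nr1d1, Atg7, Cacng4, Nfkbib, Mrpl18, Psmc3, Plxnb2, Eif3g, Eif3k, Rpsa and both gene IDs of Rpl7a among the lower, which therefore did not pass there. Without the covariate, calls with p close to 0.01 were lost with single rats: Glul and Cntfr kept p under 0.01 in 4 of the 18 fits that left out 1 rat, Gad1 and Eif3k in 7, and Gad2, Macf1, Mrpl37, Herpud1 and Itgb1bp1 in 8.

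**Figure D4:**
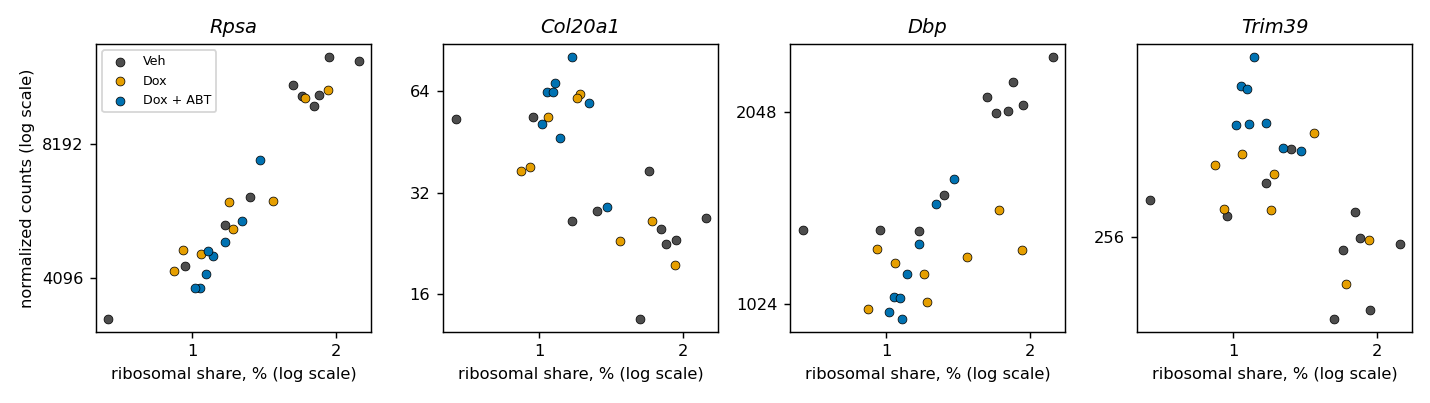
Normalized counts of 4 genes against the ribosomal share of the library, both on log2 axes, 1 point per rat, coloured by group. Rpsa rises and Col20a1 falls with the share over all 26 rats, Dbp rises with it, and Trim39 values of the Dox + ABT rats are mostly above those of Veh and Dox rats of like share.

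The genes for cytosolic ribosomal proteins were the list with the most lower genes. Of 86 measured, 14 fell and 1 rose (p under 0.01), 17.4% where 7.84% of all tested genes passed, the median log2 change was -0.51 and 80 were below 0, where the median over all tested genes was 0.00. Rpsa, the laminin receptor protein of the small subunit, ran from 3311 to 12871 normalized counts in the Veh rats (median 10259.5) and from 3876 to 7534 in the Dox + ABT rats (median 4647), with all Dox + ABT rats below the Veh median and inside the Veh range. Its change was -0.73 ± 0.24 (SE, p = 0.00522). Without Veh rat 11, 59 of the 86 fell, where 7.56% of all tested genes were lower, and without Veh rats 10 and 11, which had the lowest shares, 66 fell, where 10.6% were lower. Among the 4 Veh and 7 Dox + ABT rats of the first kind, none passed and the median change was 0.07. With the covariate 6 fell and none rose (6.98%, where 2.49% of all tested genes passed, median -0.11), among them Rpsa (-0.27, p = 0.0022, and p = 0.028 without Veh rat 11). But the covariate is built from these same genes, so that count says little about them. Several have near-identical copies whose reads the counting could split: Rpl7a appears under 2 gene IDs with changes of -0.82 and -0.83. Rpl21, named after its value was seen, had the largest rise among all genes that passed at 3.45, against the direction of the list.

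Translation factors, which load and move the ribosome, also held lower genes. Of 49, 8 fell and none rose (16.3%, where 7.84% of all tested genes passed, median -0.18), with 19 falling once Veh rat 11 was left out, where 7.56% of all tested genes were lower, and 14 without Dox + ABT rat 4, where 5.48% were. Eef2, the elongation factor that moves the ribosome along the message, ran from 24578 to 47616 normalized counts in the Veh rats (median 36120.5) and from 21004 to 33834 in the Dox + ABT rats (median 24637). Its change was -0.44 ± 0.13 (SE, p = 0.00189) and -0.29 ± 0.11 (p = 0.0127) with the covariate. Eef1a1, which brings the aminoacyl-tRNA, changed by -0.53 (p = 0.00325) without the covariate and -0.26 (p = 0.0141) with it. With the covariate, 2 subunits of the initiation factor eIF3 were lower, Eif3g at -0.21 (p = 0.0063) and Eif3k at -0.21 (p = 0.00634), and the start codon factor Eif1, named after its value was seen, was higher at 0.21 (p = 0.00797), where it had 0.14 (p = 0.0804) without the covariate. Within the first kind of library Eif3g changed by -0.04 (p = 0.791) and Eif3k, in the opposite direction, by 0.01 (p = 0.939). None of the 49 passed with the covariate without Veh rat 11.

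Of the 81 nuclear genes of oxidative phosphorylation, the mitochondrial route of energy production, 6 fell (7.41%, where 7.84% of all tested genes passed, median -0.20), including the complex I subunits Ndufs6 (-0.61, p = 0.00285) and Ndufa9 (-0.43, p = 0.00393). With the covariate none passed and the median was 0.00, and without Veh rat 11 and without a covariate 32 fell, where 7.56% of all tested genes were lower. Of the 13 mitochondrially encoded genes 1 fell (7.69%), Mt-co2, a subunit of cytochrome oxidase (-0.76, p = 0.00612), and all 13 were below 0 (median -0.60, and -0.19 with the covariate, where none passed). Without Veh rat 11, 5 of the 13 fell, where 7.56% of all tested genes were lower. Without Dox + ABT rat 4, 9 fell, where 5.48% were lower. Under quantile normalization the median of those 13 genes was -0.21. Of 75 mitochondrial ribosomal proteins 2 fell (2.67%, and 12 without Veh rat 11), Mrpl18 (-0.63, p = 0.00195) and Mrpl37 (-0.40, p = 0.00651), and Mrpl18 had -0.31, p = 0.00411 with the covariate, which became p = 0.0656 without Veh rat 11 and p = 0.276 in the first kind alone, the latter without a covariate. Of 37 proteasome subunits 4 fell (10.8%), with the immunoproteasome subunit Psmb9 (-0.68, p = 0.00185) and the ATPase Psmc3 (-0.55, p = 0.00289) first, and Psmc3 remained (-0.25, p = 0.00417). Without Veh rat 11, 13 of the 37 fell, where 7.56% of all tested genes were lower. Without Dox + ABT rat 4, 8 fell, where 5.48% were lower.

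Of 32 collagen chain genes, picked from the matrix list after its values were seen, 11 rose and none fell, where 3.89% of all tested genes were higher, 30 changed by more than 0 and the median log2 change was 0.59, under trimmed mean rescaling 0.59 and under quantile normalization 0.57. Col20a1 ran from 13.5 to 53.6 normalized counts in the Veh rats (median 26.7) and from 29.1 to 80.5 in the Dox + ABT rats (median 61.2), a change of 0.93 ± 0.25 (SE, p = 0.00105), and Col5a3, a fibrillar chain, ran from 153 to 398 normalized counts in the Veh rats (median 234) and from 263 to 457 in the Dox + ABT rats (median 397), a change of 0.58 ± 0.16 (SE, p = 0.00119). All Dox + ABT rats were above the Veh median in both genes. These are low to moderate genes with means of 5.54 to 2436 normalized counts, and 19 of the 32 had a slope on the share with p under 0.01, all downward. With the covariate the median was 0.31 and Col20a1 (0.62, p = 0.00819) and Col5a3 (0.38, p = 0.00828) remained; without Veh rat 11 their p with the covariate was 0.0272 and 0.0766. In the wider list of matrix proteins, laminins and integrins, 14 of 106 rose and 4 fell (17%, where 7.84% of all tested genes passed), and 2 rose with the covariate (1.89%, where 2.49% passed; 8 rose and 1 fell without Dox + ABT rat 4, where 4.5% passed).

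Of 46 spliceosome and SR protein genes, 4 rose and none fell, 8.7% where 7.84% of all tested genes passed: the splicing factors Srsf1 and Srsf6, and, named after their values were seen, Sf3b1 (0.54, p = 0.00493) and Srrm2 (0.53, p = 0.00308). Srsf1 ran from 980.2 to 1625 normalized counts in the Veh rats (median 1105) and from 1147 to 2008 in the Dox + ABT rats (median 1711). All Dox + ABT rats were above the Veh median for Srsf1, with a change of 0.46 ± 0.11 (SE, p = 0.000399) and 0.30 ± 0.09 (p = 0.00167) with the covariate. Srsf6 changed by 0.62 (p = 0.00115) without the covariate and 0.40 (p = 0.00747) with it, and its p with the covariate was 0.0199 without Veh rat 11. The list's median was 0.03. Without Veh rat 11, 8 of the 46 rose and 1 fell, where 6.1% of all tested genes were higher and 7.56% lower. Without Dox + ABT rat 4, 8 rose, where 6.27% were higher. Of 50 chromatin regulators 3 rose and none fell (6%), and 9 rose without Veh rat 11, where 6.1% of all tested genes were higher, 5 without Dox + ABT rat 4 and 16 without Veh rats 10 and 11, where 8.96% were. In the fit of all rats Chd2, a chromatin remodeller (0.29, p = 0.00356), and Kmt2d, a histone H3 methyltransferase (0.51, p = 0.00461), had the smallest p, and none passed with the covariate. The giant linker proteins of the cytoskeleton Dst (0.38, p = 0.00414) and Macf1 (0.39, p = 0.00727) rose, the only 2 of 42 cytoskeletal and motor genes to pass (4.76%), and neither remained. Without Veh rat 11, 4 of the 42 rose and 4 fell, and without Dox + ABT rat 4, 2 rose and 2 fell.

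Of 16 mature granule cell genes 1 fell (6.25%, where 7.84% of all tested genes passed), C1ql2, a secreted synaptic protein of the mossy fibres. It ran from 5295 to 9272 normalized counts in the Veh rats (median 7267) and from 3980.4 to 6409 in the Dox + ABT rats (median 5111), with all Dox + ABT rats below the Veh median, a change of -0.46 ± 0.12 (SE, p = 0.000697) and -0.34 ± 0.11 (p = 0.00457) with the covariate. Within the first kind of library its change was -0.18 (p = 0.129). Prox1, the defining factor of granule cells, changed by 0.22 (p = 0.134). Of 26 genes of newborn neurons 1 fell (3.85%, and 2 without Veh rat 11 or without Dox + ABT rat 4), the neuronal transcription factor Neurod1 (-0.33, p = 0.003), which did not remain. Among 29 proliferation genes, 2 subunits of the replicative helicase fell in both fits (6.9%, where 7.84% of all tested genes passed without the covariate and 2.49% with it), Mcm6 with -0.52 (p = 0.000283) without the covariate and -0.43 (p = 0.00202) with it and Mcm7 with -0.42 (p = 0.000779) without the covariate and -0.31 (p = 0.00527) with it. Mcm6 ran from 49.5 to 90.1 normalized counts in the Veh rats (median 66.7) and from 37.4 to 59 in the Dox + ABT rats (median 46.3), and without Veh rat 11 the p with the covariate was 0.0252.

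The list of potassium channels and HCN cation channels, which set the resting potential and the firing of neurons, had 79 genes measured. Of these 9 fell and 1 rose without the covariate, where 3.95% of all tested genes were lower, and 5 fell and none rose with it, where 1.41% were lower, while the median was 0.01 and -0.07. The 5 were Kcnh3, the inward rectifier Kcnj4 (-0.29, p = 0.00488), the silent subunit Kcns2 (-0.43, p = 0.003, and -0.33, p = 0.0184, without it) and, named after their values were seen, the silent subunit Kcng1 (-0.39, p = 0.00849) and the leak channel Kcnk2 (-0.42, p = 0.00965). Kcnh3 itself ran from 1919 to 2947 normalized counts in the Veh rats (median 2672) and from 1664 to 2396 in the Dox + ABT rats (median 2007), with all Dox + ABT rats below the Veh median. Kcnj4 ran from 2002 to 2917 normalized counts in the Veh rats (median 2218) and from 1703 to 2368 in the Dox + ABT rats (median 1789), where rat 12 was the only Dox + ABT rat inside the Veh range. With the covariate and without Veh rat 11, 1 of the 79 fell, where 0.353% of all tested genes were lower. Of 27 sodium and calcium channel genes 2 passed (7.41%, where 7.84% of all tested genes did; 4 without Veh rat 11): the axonal sodium channel Scn1a rose (0.42, p = 0.0016) and the calcium channel subunit Cacnb1 fell (-0.25, p = 0.00488), neither with the covariate.

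Of 66 genes of synaptic vesicles and release 2 rose and 3 fell (7.58%, against 7.84% of all tested genes; 2 rose and 6 fell without Veh rat 11, and likewise without Dox + ABT rat 4), and with the covariate Unc13b and the active zone protein Ppfia2 (0.26, p = 0.00596, named after its value was seen) were higher and the presynaptic adhesion protein Nrxn2 lower. Nrxn2 ran from 5581 to 9534 normalized counts in the Veh rats (median 7288) and from 4640.0 to 6475 in the Dox + ABT rats (median 5354), a change of -0.41 ± 0.11 (SE, p = 0.000568) and -0.32 ± 0.10 (p = 0.00344) with the covariate. Of 59 genes for glutamate receptors and the postsynaptic scaffold 2 rose and 6 fell (13.6%), and 3 fell with the covariate: the scaffold protein Dlgap3 (-0.35, p = 0.00699), the AMPA receptor auxiliary subunit Cacng4 (-0.27, p = 0.00784) and, named after its value was seen, Dlgap2 (-0.24, p = 0.00948). Without the covariate Dlgap2 changed the other way, by 0.05 (p = 0.778). Dlgap3 ran from 3178 to 6347 normalized counts in the Veh rats (median 5604) and from 2305 to 4734 in the Dox + ABT rats (median 3238), and none of the 59 passed with the covariate once Veh rat 11 was left out. Of 18 GABA receptor genes 3 fell (16.7%), including the delta subunit of extrasynaptic receptors Gabrd (-0.34, p = 0.00435) and Gabrb1 (-0.85, p = 0.00591), and of 22 interneuron genes the GABA synthesis enzymes Gad1 (0.25, p = 0.00898) and Gad2 (0.27, p = 0.00795) rose (9.09%, and 1 gene without Dox + ABT rat 4). None of these remained. Of 60 receptor genes for monoamines, acetylcholine and peptides 4 fell (6.67%), with Mc4r (-0.95, p = 0.00532) and the muscarinic receptor Chrm1 (-0.27, p = 0.00701) first and none with the covariate. Of 18 neurotrophins and their receptors, 1 fell (5.56%), Cntfr (-0.29, p = 0.00828), and without Veh rat 11, 1 fell and 1 rose.

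In the Wnt and Notch pathways, which pattern and maintain neural progenitors, 7 of 58 genes fell and 3 rose, where 3.95% of all tested genes were lower and 3.89% higher, and with the covariate 4 fell and none rose, where 1.41% were lower and 1.08% higher. Those 4 were the ligands Wnt7b and Wnt16, the receptor Notch3 and, named after its value was seen, the Wnt receptor Fzd9 (-0.41, p = 0.00827). Wnt7b ran from 1174 to 2181 normalized counts in the Veh rats (median 1747) and from 877 to 1866 in the Dox + ABT rats (median 1059), with 6 of 8 Dox + ABT rats below every Veh rat, a change of -0.57 ± 0.14 (SE, p = 0.000248) and -0.38 ± 0.10 (p = 0.000839) with the covariate. Wnt16, a low gene, ran from 38.2 to 62.5 normalized counts in the Veh rats (median 49.6) and from 19.9 to 45.8 in the Dox + ABT rats (median 33.5) and changed by -0.59 ± 0.15 (SE, p = 0.000512) and -0.63 ± 0.16 (p = 0.000451) with the covariate. Without Veh rat 11, 3 of the 58 fell with the covariate, where 0.353% of all tested genes did, and without Veh rats 10 and 11 none did. Of 38 genes of the TGF-beta and BMP pathways 4 passed (10.5%, where 7.84% of all tested genes did): 1 rose, the inhibitory Smad7 (0.32, p = 0.00383), and 3 fell, the ligand Tgfb1 (-0.50, p = 0.00463) among them, and with the covariate only the ligand Bmp6 was lower (-0.37, p = 0.00853, and -0.29, p = 0.0367, without it). Of 71 axon guidance genes 5 passed (7.04%): 1 rose, the plexin Plxnb3 (0.46, p = 0.00328), and 4 fell, of which Plxnb2 remained (-0.19, p = 0.00904).

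Of 20 clock genes, whose products drive the daily cycle of transcription, 2 fell without the covariate (10%, where 7.84% of all tested genes passed), Dbp and the nuclear receptor Nr1d1, and with it 3 fell and 1 rose, where 2.49% of all tested genes passed. Nr1d1, a repressor in the clock loop, ran from 1521 to 2474 normalized counts in the Veh rats (median 2145) and from 1304 to 1862 in the Dox + ABT rats (median 1376), a change of -0.44 ± 0.12 (SE, p = 0.00122) and -0.29 ± 0.10 (p = 0.00822) with the covariate. Nr1d1 overlaps Thra on the opposite strand, and since the strand used in counting is not given in the sources used here, their reads cannot be told apart. Bhlhe41, a repressor of clock targets, changed by -0.33 (p = 0.0183) without the covariate and -0.44 (p = 0.00182) with it. The activator Arntl, named after its value was seen, changed by 0.22 (p = 0.0114) without the covariate and 0.24 (p = 0.00705) with it. Without Veh rat 11 the p with the covariate was 0.000709 for Dbp, 0.0045 for Bhlhe41, 0.0314 for Nr1d1, and 0.0163 for Arntl. Thus 2 of the 20 fell and none rose, where 0.353% of all tested genes were lower. Without the covariate, 2 fell and 2 rose in the absence of that rat. The hour at which tissue was taken is not given in the sources used here, so its part in these values was not tested. Of 49 immediate early genes, which neurons switch on with activity, Egr3 fell in both fits and Junb with the covariate (-0.36, p = 0.00917, and -0.32, p = 0.013, without it), and of 30 glucocorticoid response genes 1 fell (3.33%), Klf9 (-0.63, p = 0.00669), and 2 without Veh rat 11. Of the immediate early genes, 1 fell and 1 rose without the covariate and without Veh rat 11, and 1 fell and 2 rose without Dox + ABT rat 4.

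Of 30 microglial genes 4 fell and none rose (13.3%, where 7.84% of all tested genes passed, median -0.21): Csf1r, the receptor on which microglia depend, P2ry13 (-0.76, p = 0.00396) and, named after their values were seen, Trem2 (-0.48, p = 0.00737) and Laptm5 (-0.55, p = 0.00832). Csf1r ran from 1367 to 3116 normalized counts in the Veh rats (median 2329) and from 1290.3 to 2318 in the Dox + ABT rats (median 1462), with all Dox + ABT rats below the Veh median, a change of -0.48 ± 0.14 (SE, p = 0.00199). The summed level of the 30 genes was 8068 to 13373 normalized counts in Veh (median 11358) and 8000 to 13057 in Dox + ABT (median 9276). None of the 30 passed with the covariate. When Dox + ABT rat 4 was left out, 2 fell with the covariate, where 2.08% of all tested genes were lower. The microglial marker Aif1 changed by -0.28 (p = 0.14) without the covariate and -0.04 (p = 0.784) with it. Of 28 astrocyte genes 2 fell (7.14%), the folate enzyme Aldh1l1 (-0.47, p = 0.00175) and glutamine synthetase Glul (-0.30, p = 0.00965), and neither remained. Without the covariate 5 of the 28 fell without Veh rat 11, where 7.56% of all tested genes were lower, and 8 fell without Dox + ABT rat 4, where 5.48% were. With the covariate 4 fell without Dox + ABT rat 4, where 2.08% of all tested genes were lower. Gfap changed by -0.37 (p = 0.0228) without the covariate and -0.18 (p = 0.172) with it. The median of Gfap was 24173 normalized counts in Veh rats, 16003 in Dox + ABT rats and 13694 in Dox rats.

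Of 23 genes of precursors and newly formed oligodendrocytes 4 fell (17.4%, median -0.09), Cacng4 (-0.42, p = 0.00127) and the proteoglycan Cspg4 or NG2 (-0.35, p = 0.00438) having the smallest p, and Cacng4 remained. Of 28 genes of mature myelin 2 rose (7.14%, against 7.84% of all tested genes, median 0.01), the membrane protein Opalin (0.63, p = 0.00224) and Hapln2, a link protein at nodes of Ranvier (0.79, p = 0.00389), and neither remained. The defining markers Mbp and Mog changed by -0.12 (p = 0.519) and 0.10 (p = 0.408). None of the 21 CA field and mossy cell genes, 30 endothelial genes, 23 mural and meningeal genes, 13 choroid plexus genes (1 rose in both fits without Dox + ABT rat 4) or 8 haemoglobin and red cell genes passed in either fit, nor did the 1 long non-coding RNA measured. Iyd and Pecam1 were not among the genes analysed here, and the choroid plexus markers Kl and Folr1 lay under the filter.

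Among the proteins that ABT-263 binds, Bcl2l1 (Bcl-xL) was lower. It ran from 904 to 1267 normalized counts in the Veh rats (median 1068) and from 800.5 to 1127 in the Dox + ABT rats (median 881), a change of -0.23 ± 0.08 (SE, p = 0.00684) that kept p under 0.01 in 9 of the 18 fits that left out 1 rat (highest p 0.0196), with 6 of 8 Dox + ABT rats below the Veh median, and -0.16 ± 0.07 (p = 0.0361) with the covariate. Bcl2 was a low gene and ran from 19.4 to 39.7 normalized counts in the Veh rats (median 28.5) and from 9.69 to 29.1 in the Dox + ABT rats (median 20.3), a change of -0.52 ± 0.21 (SE, p = 0.0223), and Bcl2l2 (Bcl-w) changed by 0.04 ± 0.07 (SE, p = 0.598). No other gene of the 17 of the BCL-2 family passed (5.88%, where 7.84% of all tested genes did). The doxorubicin target Top2b, the topoisomerase of neurons, ran from 897 to 1309.9 normalized counts in the Veh rats (median 1000.3) and from 1087 to 1345 in the Dox + ABT rats (median 1164), a change of 0.21 ± 0.08 (SE, p = 0.012) that did not pass, and Top2a, the form of dividing cells, was near the filter at 0.49 ± 0.39 (SE, p = 0.217). Of 23 genes for targets, efflux and reduction of doxorubicin 2 passed (8.7%; 5 without Veh rat 11 and 4 without Dox + ABT rat 4): the transporter Abcc5 rose (0.51, p = 0.00272) and the reductase Por fell (-0.34, p = 0.00113), and Por remained (-0.21, p = 0.00577).

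The cell cycle inhibitor Cdkn1a (p21), a marker of senescence, did not pass the test. It ran from 30.8 to 91 normalized counts in the Veh rats (median 55.4) and from 33.5 to 80.7 in the Dox + ABT rats (median 65), a change of 0.10 ± 0.36 (SE, p = 0.795), and the Dox rats ran from 62.2 to 530.3 (median 79.6). Cdkn2a (p16) had a mean of 3.09 normalized counts and was not tested. Of 34 senescence and secretory genes 3 rose and 2 fell (14.7%, where 7.84% of all tested genes passed): Lmnb1, a nuclear lamin that senescent cells lose, the chromatin protein Hmgb1 (0.55, p = 0.0018) and, named after their values were seen, Vegfa (0.69, p = 0.00275) rose, and Tgfb1 and Timp2 (-0.37, p = 0.00963) fell. Lmnb1 ran from 31.1 to 109 normalized counts in the Veh rats (median 46.4) and from 58.1 to 114 in the Dox + ABT rats (median 97.8), a change of 0.75 ± 0.23 (SE, p = 0.00264) and 0.37 ± 0.13 (p = 0.00956) with the covariate, and its p with the covariate was 0.0588 without Veh rat 11. Of 50 p53 targets and DNA repair genes 2 rose (4%; 5 rose and 1 fell without Veh rat 11, and 5 rose without Dox + ABT rat 4), the double-strand break proteins Tp53bp1 (0.36, p = 0.00187) and Mre11 (0.40, p = 0.00438), and with the covariate Tp53bp1 (0.21, p = 0.00946) was higher and the p53 target Zmat3 (-0.29, p = 0.00914) lower. Zmat3 changed by -0.04 (p = 0.78) without the covariate, and without Veh rat 11 its p with the covariate was 0.0456.

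In the lists of complement, interferon, antigen presentation, NF-kB, antioxidant and heat shock genes between 2.86% and 8% of genes passed, where 7.84% of all tested genes did. Of 25 complement genes the protease C1r fell and C4a rose (0.67, p = 0.00306), and C1r ran from 348 to 490.1 normalized counts in the Veh rats (median 422) and from 292 to 386 in the Dox + ABT rats (median 329), a change of -0.33 ± 0.08 (SE, p = 0.000197) and -0.30 ± 0.08 (p = 0.000819) with the covariate. C4a has a near-identical copy and is uncertain. Of 32 interferon response genes and 29 genes of antigen presentation, Psmb9 fell in both lists and the class I gene RT1-A2, whose family also shares reads, fell in the second (-0.45, p = 0.00568). Of 35 NF-kB and cytokine genes the inhibitor Nfkbib fell in both fits (-0.36 (p = 0.00161) without the covariate and -0.28 (p = 0.00957) with it), while without Dox + ABT rat 4 and without the covariate 2 of the 35 fell and 2 rose, and without Veh rat 11 1 fell and 1 rose. Of 40 antioxidant and iron genes Keap1, which holds the antioxidant factor Nrf2 in check, fell (-0.31, p = 0.00391) and the transferrin receptor Tfrc rose (0.64, p = 0.00258). Without Veh rat 11, 7 of the 40 fell and 1 rose, where 7.56% of all tested genes were lower and 6.1% higher. Without Dox + ABT rat 4, 3 fell and 1 rose, where 5.48% were lower and 6.27% higher. Without Veh rats 10 and 11, 10 fell and 1 rose, where 10.6% were lower and 8.96% higher. Of 42 heat shock and unfolded protein genes Hyou1 rose (0.33, p = 0.00512) and Herpud1 fell (-0.24, p = 0.00607), with 3 rising and 3 falling without Veh rat 11. Keap1, Tfrc, Hyou1 and Herpud1 did not remain with the covariate.

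Of 48 genes of glycolysis and the citrate cycle 4 fell and 1 rose (10.4%, where 7.84% of all tested genes passed; 8 fell and 1 rose without Veh rat 11, and 7 fell and 1 rose without Dox + ABT rat 4), the pyruvate dehydrogenase kinases Pdk1 (-0.33, p = 0.00108) and Pdk2 (-0.32, p = 0.00334) having the smallest p, and Pdk1 remained (-0.23, p = 0.00657). Of 57 lysosome and autophagy genes 4 fell and none rose (7.02%, and 9 fell without Veh rat 11 and 7 without Dox + ABT rat 4), the conjugating enzyme Atg7 (-0.37, p = 0.00123) and cathepsin A, Ctsa (-0.29, p = 0.00338), first, and Atg7 remained (-0.24, p = 0.00717). Of 35 cholesterol genes 2 fell (5.71%), the sterol sensor Scap (-0.34, p = 0.00189) and the reductase Tm7sf2 (-0.44, p = 0.0056), and neither remained. Read against 7.84% of all genes passing without the covariate, the shares in the fit of all rats were highest in the lists of cytosolic ribosomal proteins (17.4%), of oligodendrocyte precursors (17.4%), of Wnt and Notch (17.2%) and of matrix proteins (17.0%). The order is given for that fit alone, since counts within lists moved when single rats were left out.

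**Figure D5:**
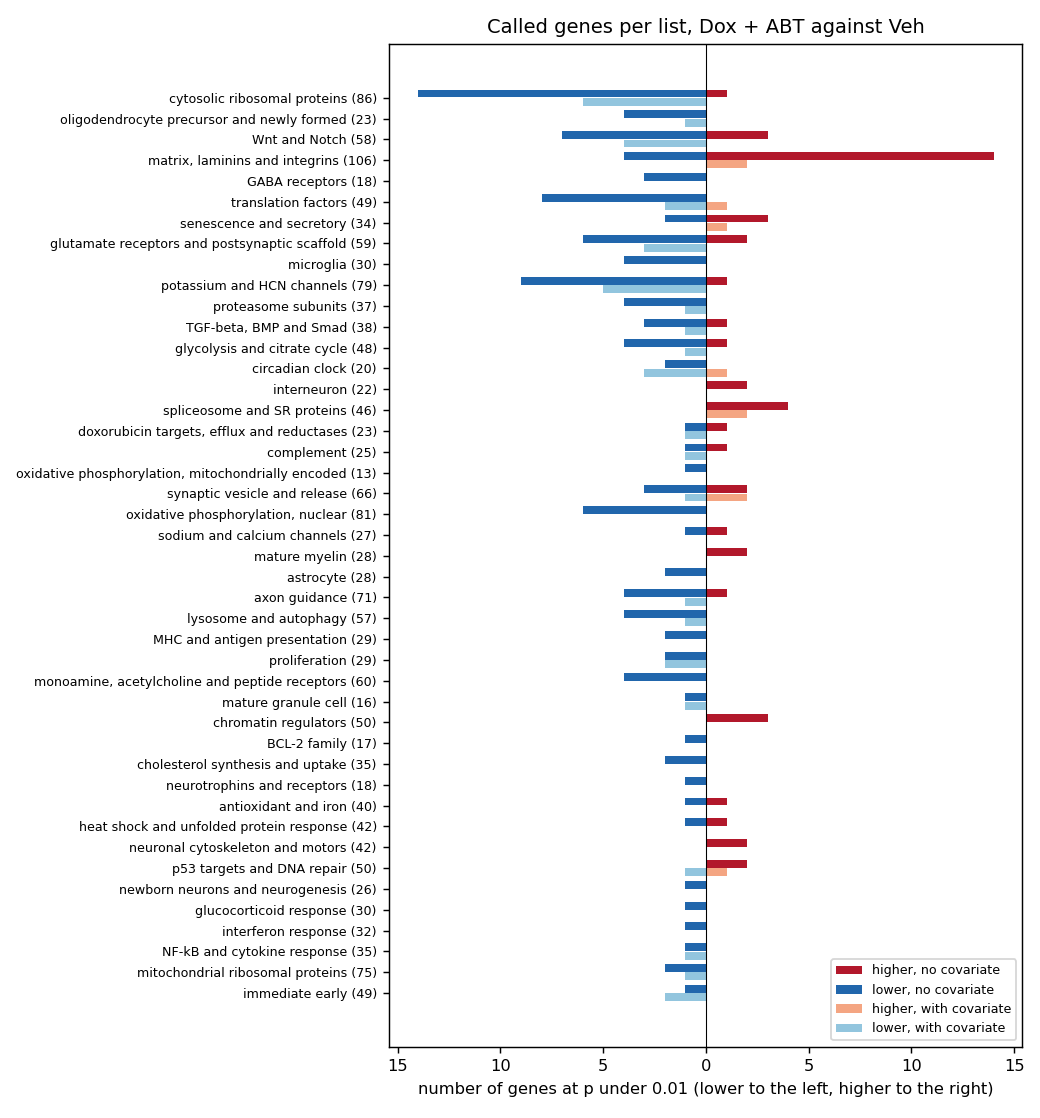
Number of genes at p under 0.01 in each list of at least 13 tested genes with 1 or more such genes, lower to the left and higher to the right, without the covariate (dark) and with it (light); the number tested is in brackets. Lists are ordered by the share of their genes that passed without the covariate, with cytosolic ribosomal proteins at the top at 14 lower and 1 higher genes, and 6 lower and 0 higher with the covariate.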

How the data were processed

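Poly(A) RNA from the DG of 26 rats was sequenced on an Ion Proton. The deposited values are a signal, not raw counts: per the labels and the study's methods, the authors aligned reads to rn6 with STAR 2.5.3a in Partek Flow, quantified transcripts and divided each library by its Median Ratio factor. The authors took their list of changed genes from DESeq2. It was not used here, since the deposited values came out as whole reads (within 0.02 of a read, for genes with 1 row) for only 75.4% to 80.1% of low values per library. Rows of the same gene ID (24012 rows, 17910 genes) were summed, and those averaging 5 or more (15595 genes) were tested on log2(value + 1). The test was limma 3.58.1 in R 4.3.3 (lmFit, eBayes with a variance trend), two-sided. All 26 rats were in 1 model of 3 groups with Veh as the reference, with and without the log2 ribosomal share as covariate. The study's threshold of p under 0.01 was used, with Benjamini-Hochberg adjustment over all tested genes beside it. Errors of log2 changes are SEs of the model, and the p-values measure the spread between rats. The share was compared by an exact permutation test. The fits were tested on simulated data.

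The members and gene lists were chosen with earlier results of these data known. Genes named were the 8 with the smallest p in each direction without and the 6 with the covariate (mean of at least 50, not clone or locus names), the 2 members of each list with the smallest p in each fit among those under 0.01, and Bcl2, Bcl2l1, Bcl2l2, Cdkn1a, Cdkn2a, Top2a, Top2b, Gfap and Aif1; genes said to be named after their values were seen are outside this rule. Prox1, Mbp and Mog are given beside these as defining markers of their cell types. The values of 1 further gene that meets the rule are left out and not reported here. Alternatives were the pseudocount, the filter, the variance trend, robust eBayes, arrayWeights, rescaling, the share in percent, other covariates, a replicate block, libraries of the first kind and leaving out each rat. No coordinates are given, since the reference at hand is of another assembly than rn6. Figures were drawn with matplotlib.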

Additional observations from a re-analysis of the deposited data

Results flagged for a closer look

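Of 256 groups of 8 or 10 values looked at, 26 held a highest or lowest rat that stood apart from its nearest neighbour by more than Dixon's 95% critical value, a gap that about 1 in 20 groups shows by chance. Dox + ABT rat 4, the single Dox + ABT library of the second kind, was the one that stood apart in 21 of them. Mitochondrially encoded genes took 16.2% of its normalized counts, where the next Dox + ABT rat had 9.68%. It was the highest Dox + ABT rat, with the next highest value given after its own in normalized counts, in Eif4ebp1 (141 against 96.7), Mcm7 (279.7 against 234), Cacng4 (1698 against 1264), Aldh1l1 (469.8 against 343), Csf1r (2318 against 1726), Eef1a1 (14167 against 9961), P2ry13 (61.4 against 43.4), Rpsa (7534 against 5487), RT1-A2 (309 against 237), Cntfr (1859 against 1357), Glul (21891 against 16465), Gfap (25642 against 19269.6), Aif1 (215 against 173), Kcnk2 (371 against 290.5), Laptm5 (589.9 against 413). It was the lowest, with the next lowest value after its own, in Zmym6 (265 against 383), Unc13b (437 against 592), Abcc5 (1505 against 2607), Hyou1 (1979 against 2138), Srrm2 (8010.2 against 12835). Leaving this rat out gave 1832 genes at p under 0.01 in place of 1222 without the covariate and 702 in place of 388 with it.

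Values of other rats stood apart in 5 more groups. Dox + ABT rat 12 had 2368 normalized counts of Kcnj4, where the next rat of its group had 1906. Veh rat 6 had 1188 normalized counts of Opalin, where the next rat of its group had 571. Dox + ABT rat 1 had 24.8 normalized counts of Mc4r, where the next rat of its group had 12.1. Veh rat 9 had 485 normalized counts of RT1-A2, where the next rat of its group had 342. Dox + ABT rat 11 had 469 normalized counts of Arntl, where the next rat of its group had 394.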

How the results depend on the processing

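Pseudocounts of 0.5 and 5, other filters, no variance trend, robust eBayes, trimmed mean rescaling, quantile normalization and a fit of the 18 rats alone kept both counts of genes within 1.5 times. Named genes with p under 0.01 before or after the change kept their direction. That of the other named genes was not checked. Without the covariate, arrayWeights gave 5297 genes in place of 1222 (6152 at an adjusted p under 0.05), leaving out Veh rats 10 and 11 gave 3046, and leaving out 1 rat gave 695 (without Dox + ABT rat 5) to 2130 (without Veh rat 11); the counts were also over 1.5 times away without Veh rat 1 (760), 2 (788), 9 (696) or 10 (1855) and without Dox + ABT rat 3 (742) or 6 (696). With the covariate, in place of 388, arrayWeights gave 865, the share in percent 246, the first kind of library alone, without a covariate, 172, leaving out Veh rats 10 and 11 99, the 2 Veh and 8 Dox + ABT rats of like share without a covariate 34, and leaving out 1 rat 111 (without Veh rat 11) to 702 (without Dox + ABT rat 4). The share of mitochondrially encoded genes as covariate gave 384 genes and the first component 414. Eif3k with the covariate was reversed in the first kind alone (0.010, p = 0.939), and Dlgap2 in the rats of like share (0.098). The difference in ribosomal share was -0.385 on the percent scale (exact p = 0.0443), and ran from -0.47 to -0.28 on the log2 scale when 1 rat was left out. Leaving out Veh rats 10 and 11, and the rats of like share, were alternatives chosen after seeing the data. The cause of these shifts was not tested.

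The replicate numbers are shared by 8 rats of each group but mark different rats: same-numbered rats had correlated deviations over 0.1 in 3 of 8 pairs (-0.14 to 0.298), and 1 of 8 correlated best with its own number. A replicate block was fitted to those 8 Veh and 8 Dox + ABT rats alone, without the Dox rats and without Veh rats 9 and 10. The counts were then 1723 genes (635 at an adjusted p under 0.05) without the covariate and 400 (2 at an adjusted p under 0.05) with it. Of these, 940 and 141 were shared with the fits without the block. The block and the change of rats cannot be told apart in these counts. Leaving out Veh rat 10 alone gave 1855 genes without the covariate (547 at an adjusted p under 0.05). Leaving out each rat in turn, 54 of the 310 genes called by both fits kept p under 0.01 in both throughout. Depth limited genes near the filter of 5 normalized counts, which rest on few reads.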
